A study of Mus musculus with 2 samples.

Results

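Septin 9, its binding partner rhotekin, and Cdc42 with some of the effectors that tie it to septins were examined with related genes. They formed 1 group of 9 genes in the list of Olig2 peaks from adult mouse spinal cord. The genes were Sept9, Sept5, Rtkn, Rtkn2, Cdc42, Cdc42ep1, Cdc42ep2, Cdc42ep3 and Cdc42ep4, and a peak was given to a gene when the deposited list named that gene as its nearest. A spreadsheet had turned the septin names into dates, so Sept9 was found by its Entrez number (53860) and other septins by their RefSeq transcripts. Of the 4215 peaks in the list, 12 had 1 of these genes as their nearest gene, and they fell on 6 of the 9 genes (66.7%). Among all 21787 protein-coding genes of the mouse, 3082 had a peak by the same rule (14.1%). Since the genes were chosen with results of this list in view, the count describes them and was not tested.

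Spinal cords of male C57BL/6 mice aged 6 weeks were taken whole, 5 of them were combined for an IP, and the chromatin was immunoprecipitated with an antibody to Olig2. The peaks were called on 2 pooled experiments against sheared chromatin of the same tissue, the Input Control, whose own values were not analysed here. Each peak therefore has 1 score, with no replicate and no error, and the scale of the score and the depth behind each peak are not given in the sources used here. Whole cord holds many cell types, so a peak cannot be ascribed to oligodendrocytes or any other cell, and a peak list holds no expression marker by which the tissue could be checked.

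Septins are GTP-binding proteins that join into filaments beneath membranes, where they act as scaffolds and barriers, and several of them are abundant in myelin. Rhotekin is an effector of the small GTPase RhoA and binds septin 9. Cdc42, another small GTPase of the same family, directs actin assembly and cell polarity, and the Cdc42ep proteins (also called Borg proteins) are its effectors that bind septins. Olig2 is a basic helix-loop-helix transcription factor of the oligodendrocyte lineage, and factors of this class bind E-boxes, words of the form CANNTG.

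The sequences of the 12 peaks are shown because the presence and place of the E-box differed among them. Each was read 5′ to 3′ from the + strand of GRCm38.p6 (RefSeq), the assembly on which the deposited positions lie, and capitals mark CAGCTG, except in the Cdc42 peak, where they mark TGACGTCA. Peaks are 51 bp wide, and only 30 bases are shown of the 2 peaks that overlap an exon of an mRNA.
Sept9 peak 1, chr11:117170368-117170418: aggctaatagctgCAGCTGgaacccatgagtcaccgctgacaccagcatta
Sept9 peak 2, chr11:117296949-117296999: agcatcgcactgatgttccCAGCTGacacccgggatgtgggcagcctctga
Sept9 peak 3, chr11:117312765-117312815: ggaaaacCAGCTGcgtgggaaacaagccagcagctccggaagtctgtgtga
Sept9 peak 4, chr11:117315605-117315655: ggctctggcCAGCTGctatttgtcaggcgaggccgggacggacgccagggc
Sept9 peak 5, chr11:117317952-117318002: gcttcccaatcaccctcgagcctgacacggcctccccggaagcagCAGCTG
Sept9 peak 6, chr11:117332601-117332651: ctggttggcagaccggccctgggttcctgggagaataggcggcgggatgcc
Sept5 peak, chr16:18687068-18687118: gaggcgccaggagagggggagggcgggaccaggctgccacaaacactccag
Rtkn peak 1, chr6:83137812-83137841: ttttcttccaCAGCTGggagaaCAGCTGcc
Rtkn peak 2, chr6:83138297-83138347: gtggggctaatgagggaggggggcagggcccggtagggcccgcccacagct
Rtkn2 peak, chr10:67966230-67966280: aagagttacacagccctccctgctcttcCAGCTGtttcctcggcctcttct
Cdc42 peak, chr4:137357706-137357735: gggcacgcgccTGACGTCAgcacgcagggg
Cdc42ep1 peak, chr15:78833005-78833055: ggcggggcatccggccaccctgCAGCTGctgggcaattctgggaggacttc

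Sept9 carried 6 of the 12 peaks, and 5 of these 6 lay inside the gene. The gene spans 162665 bp on the + strand of chromosome 11 (117199661 to 117362325), with 9 annotated transcripts that each begin at a start of their own, 4 of them curated. Across the whole list, 5 of 3463 nearest genes had 6 or more peaks, Sept9 among them. Having 2 or more peaks was uncommon, at 493 of 21787 protein-coding genes (2.26%), and in the group described here Sept9 and Rtkn did so. Sept9 is also a long gene, longer than 94.1% of protein-coding genes. Of the 2427 protein-coding genes over 100 kb, 524 (21.6%) had a peak, 145 (5.97%) had 2 or more and 3 had 6 or more. The part of gene length in the Sept9 count was not tested.

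The scores of the Sept9 peaks were 18.7, 43.4, 8.90, 10.0, 11.3 and 10.3, in order along the gene from 5′ to 3′. Peak 2 stood above the other 5, with rank 229 of 4215 and 94.5% of the list below it. Peak 1 was next, at rank 1131 with 72.4% of the list below, a score that it shared with other peaks to make 32 in all. Peaks 3 to 6 lay between 31.4% and 47.4% of the list and so below its median of 11.6.

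Peak 1 of Sept9 was intergenic and lay 29268 bp before the first start of the gene. Among the transcript starts searched this was the nearest, but the end of the protein-coding gene Sec14l1 (117115168 to 117159268, + strand) lay nearer. Peaks 2 to 5 lay in 1 intron of Sept9, numbered 2 of 10 in the transcript from the second curated start (117266246). The distance from that start to the center of peak 2 was 30728 bp, although a predicted transcript begins nearer to this peak, 11172 bp away. Peaks 3, 4 and 5 lay 18925, 16085 and 13738 bp before the third curated start (117331715). Predicted Sept9 starts lay nearer to them as well, at 4644, 7484 and 8442 bp, and for peak 5 a start of the lncRNA Gm34065, on the other strand, was nearer still, at 7035 bp. Peak 6 lay 313 bp after the fourth curated start (117332313), in intron 1 of 9 of that transcript and in a CpG-rich stretch. It also fell in an exon of Gm51932, a lncRNA on the other strand (117330074 to 117335602), and the list cannot tell the 2 genes apart at this place.

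**Figure D1:**
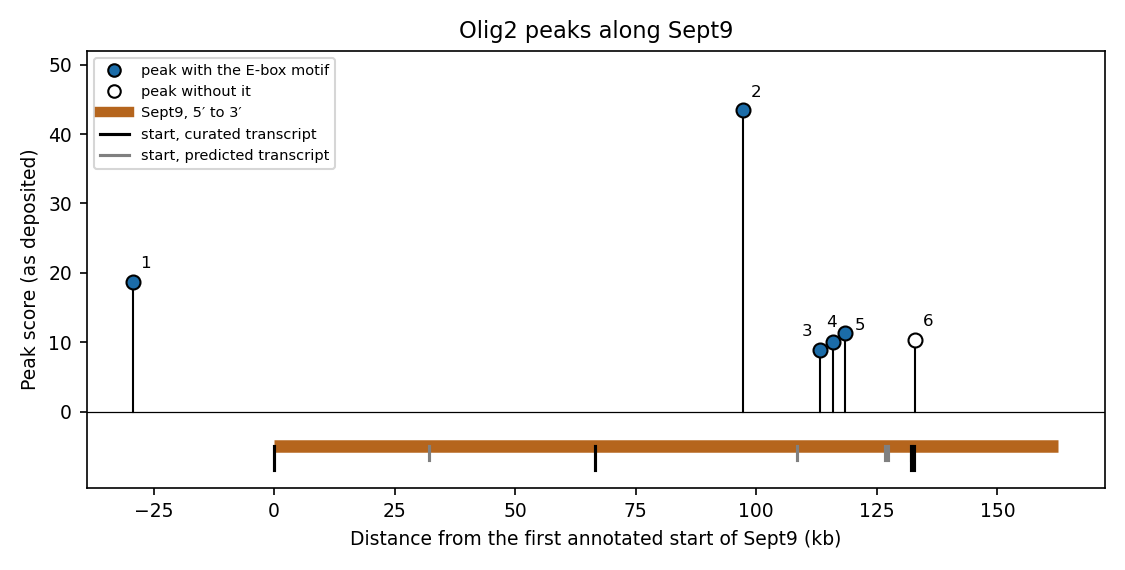
Deposited score of each of the 6 Sept9 peaks (vertical axis) against its distance in kb from the first annotated start of the gene (horizontal axis). Filled points are peaks with the E-box motif, the brown bar is the gene and the ticks under it are transcript starts; peak 2, at 43.4, stands above the others, and peaks 3 to 5 lie within 5187 bp of each other.

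The gaps between neighbouring Sept9 peaks were 126581, 15816, 2840, 2347 and 14649 bp, so that peaks 3, 4 and 5 formed a close run of 5187 bp. Runs of 3 peaks within this distance were found at 10 places in the whole list. All 3 peaks of the run held an E-box, and their scores were 8.90, 10.0 and 11.3, at ranks 2820, 2549 and 2215. The peak of highest score lay apart from this run, 15816 bp before it.

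The E-box motif, the deposited motif whose commonest word is AGCAGCTG, was hit in peaks 1 to 5 of Sept9 and not in peak 6. In each of these 5 peaks the 51 bp held a single CANNTG word, and in each it was CAGCTG. Measured to the base just after the middle of the word, it lay 9, 3, 15 and 13 bp before the peak center in peaks 1 to 4 and 23 bp after it in peak 5, where it forms the last bases of the listed peak. A further CAGCTG, 27 bp before the center, crossed the edge of peak 5, and 1 lay 76 bp before the center of peak 3. Peak 5 was also hit by 2 other deposited motifs, with the commonest words ACTTCCGGTCCG and TGATTGGC. On the other strand, the first of these holds the GGAA core known from ETS factors and the second a CCAAT box. Peak 6 was hit by 1 motif (CCCTGGCCGG), which occurred in 63 of the 4215 peaks (1.49%).

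Sept5, a septin best known from neurons, where it is found at synapses, was given 1 peak of low score. It scored 5.89, rank 3672, with 11.7% of the list below it. The peak was intergenic, 57155 bp upstream of the Sept5 start on chromosome 16. Among the transcript starts searched, the nearest was that of the lncRNA Gm41429, 9631 bp away. The pseudogene Rps2-ps7 (18681295 to 18682242, - strand), which that search left out, lay nearer to the peak. It had no E-box motif and no CANNTG within 200 bp around its center. A stronger peak lay nearer to Sept5 but was listed under Gp1bb, a platelet glycoprotein gene that overlaps the end of Sept5. That peak (chr16:18620278-18620328) scored 11.6, held the E-box motif and lay 1508 bp beyond the Sept5 span, 9635 bp from its start.

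Rtkn, which encodes rhotekin, had the peak of highest score in the group. The gene lies on the + strand of chromosome 6 (83135505 to 83152579) with 15 transcripts from 13 starts. Peak 1 (chr6:83137791-83137841) scored 74.4, rank 43 of 4215 with 99.0% of the list below, and was annotated to a 5′ UTR, in exon 1 of 12, 732 bp after a curated start. Peak 2 scored 11.2, rank 2219, and lay in intron 2 of 12, 1238 bp after the same start. The centers of both were 506 bp apart, and the first scored far above the second.

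Peak 1 of Rtkn held CAGCTG at 2 places in its 51 bp, centered 9 and 21 bp after the peak center and so 12 bp apart. In the list, 117 of the 4215 peaks (2.78%) held 2 or more CAGCTG in their 51 bp, at any spacing. A further CAGCTG lay 71 bp after the center, outside the listed peak. Peak 2 had no hit of the E-box motif, but a CAGCTG centered 24 bp after its center crossed the edge of the listed 51 bp, as the last bases of its sequence show. Its GC content was 74.5%, against 49.0% in peak 1.

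The primers of the study for the Rtkn ON-target region, the site it chose for ChIP-qPCR, were placed on the same assembly. They are shown to place the amplified stretch beside the peak, and capitals are not used in them.
Rtkn forward primer, chr6:83137631-83137650, + strand: gtcggttctgatctcccgtc
Rtkn reverse primer, chr6:83137732-83137751, - strand: gatcgagaatgtgcgtgctg
The product of 121 bp lay wholly before peak 1, with 39 bases between them, and ended 65 bp before the peak center. To reach the peak, an amplified fragment had to hold the whole product and these 39 bases. The paper gives a range of fragment lengths for this assay, and how many fragments reached the peak was not tested. The paper describes its ON-target primers as made for the region of the peak summit. It reports that Rtkn was enriched over input, though only modestly.

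Rtkn2, the paralog of rhotekin, had 1 peak near the middle of the list. It scored 12.5, rank 1949, with 53.1% of the list below. The peak was intergenic, 13343 bp upstream of the start that the deposited list used and 13311 bp before the first start annotated in GRCm38.p6 (chromosome 10, 67979566 to 68058429, + strand), and held CAGCTG 6 bp after its center. The place also lies in the span of a lncRNA on the other strand, 4930521O17Rik (67962478 to 67973708), whose start was nearer, at 7453 bp.

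Cdc42 itself had 1 peak, at its promoter and without an E-box. The peak (chr4:137357692-137357742) scored 10.3, rank 2389, a score shared by 61 peaks in all, peak 6 of Sept9 among them. It was centered 42 bp after the start of the gene, which lies on the - strand of chromosome 4 (137319696 to 137357759), and it overlapped the first exon. In place of an E-box it held TGACGTCA, the cAMP response element known as a binding word of CREB and ATF factors, centered 4 bp from the peak center. The word was present in 42 of 4215 peaks (0.996%) and in 27 of the 1572 promoter peaks (1.72%). It was also hit by 3 deposited motifs, with the commonest words CTCGTGACGTCA, CGGCGCAGGC and GCACGCGC. Of the 1572 promoter peaks in the list, 505 (32.1%) had the E-box motif.

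Of the Cdc42 effectors of the Borg family in this group, Cdc42ep1 had a peak and Cdc42ep2, Cdc42ep3 and Cdc42ep4 had none. Cdc42ep5, counted below among the other effectors of Cdc42, had none either. The Cdc42ep1 peak scored 18.5, rank 1194, with 71.1% of the list below. It was intergenic, 9617 bp upstream of the gene (chromosome 15, 78842647 to 78850902, + strand). Its CAGCTG lay at the peak center, and a further one lay 34 bp after it, outside the listed bases.

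The genes of the group without a peak differed in how far the nearest listed peak was, measured first from the nearer end of the gene. From Cdc42ep4 (chromosome 11, 113726850 to 113752543) it was 11464 bp to a peak listed under Cpsf4l, which scored 12.4 and lacked the E-box motif. From Cdc42ep2 (chromosome 19, 5917556 to 5924816) it was 70807 bp, to a peak of score 78.6 and rank 36 listed under Neat1, a long noncoding RNA. From Cdc42ep3 (chromosome 17, 79333723 to 79355091) it was 470362 bp, to a peak of score 14.2 listed under Atl2. Measured from the nearest transcript start, the same peaks were 24124 bp (Cdc42ep4), 78067 bp (Cdc42ep2) and 470362 bp (Cdc42ep3) away. No level is known for a region that is not in the list, so these 3 genes are without a listed peak and not shown to be unbound.

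**Figure D2:**
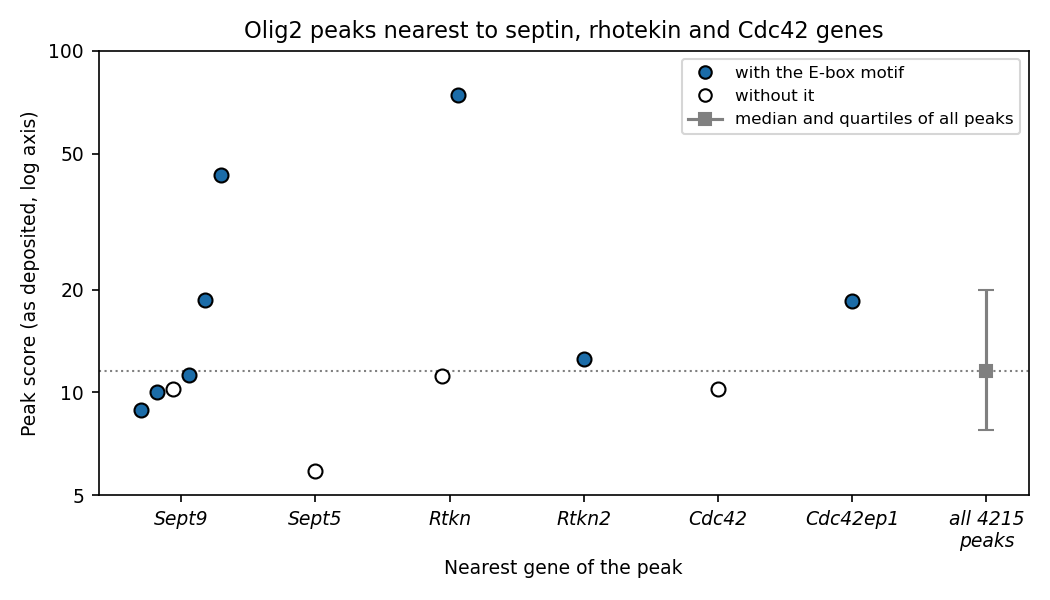
Deposited peak score (vertical, log axis) of the 12 peaks by nearest gene, with the median and quartiles of all 4215 peaks on the right; filled points have the E-box motif and open points do not. Peak 1 of Rtkn (74.4) and peak 2 of Sept9 (43.4) lie above the upper quartile. The 4 peaks without the motif lie below the dotted median of 11.6, as do peaks 3 to 5 of Sept9, which have it.

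As a group, the 12 peaks were spread over the list much as other peaks were. Their scores had a median of 11.2 and ran from 5.89 to 74.4, against a median of 11.6 and quartiles of 7.76 and 19.98 over all 4215 peaks. Of the 12, 5 scored above the list median and 2 lay above its upper quartile. Their GC content had a median of 67.6%, against 60.8% over all peaks.

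The E-box motif was hit in 8 of the 12 peaks (66.7%), against 2529 of all 4215 peaks (60.0%). By distance, 7 of 9 peaks over 1 kb from the TSS had it, against 1944 of 2485 in the list (78.2%), and 1 of 3 peaks within 1 kb had it, against 585 of 1727 (33.9%). By place, it was present in 4 of 6 intron peaks, against 1076 of 1364 (78.9%), and in 3 of 4 intergenic peaks, against 747 of 1002 (74.6%). These counts lie near those of the list. The motif was derived from the same data, and each of the 4215 listed peaks had at least 1 hit of a deposited motif, so every share here is one among peaks with a motif hit.

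Within the listed 51 bp, the form of the E-box was the same throughout. CAGCTG was present in the 51 bp of 8 of the 12 peaks, against 1387 of 4215 (32.9%), and in 200 bp around the center of 9 of the 12, against 1969 (46.7%). Forms of CANNTG other than CAGCTG were not found in the 51 bp of any of the 12 peaks. Within 200 bp, other forms lay beside CAGCTG at Sept9 peak 2, Sept9 peak 5, Rtkn peak 2 and the Rtkn2 peak. In the list, any CANNTG was present in 2185 peaks (51.8%) within 51 bp and in 3230 (76.6%) within 200 bp. Among the peaks of the list with the E-box motif, 1378 of 2529 (54.5%) held the exact word CAGCTG, as did all 8 of those described here. Over 1 kb from the TSS, 7 of 9 held it, against 1146 peaks of the list (46.1%). None of these differences was tested. All of these words were searched on both strands, and CAGCTG is a CANNTG and reads the same on each strand. A match describes the sequence and is no measured site, and the absence of one in a window says nothing of binding.

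**Figure D3:**
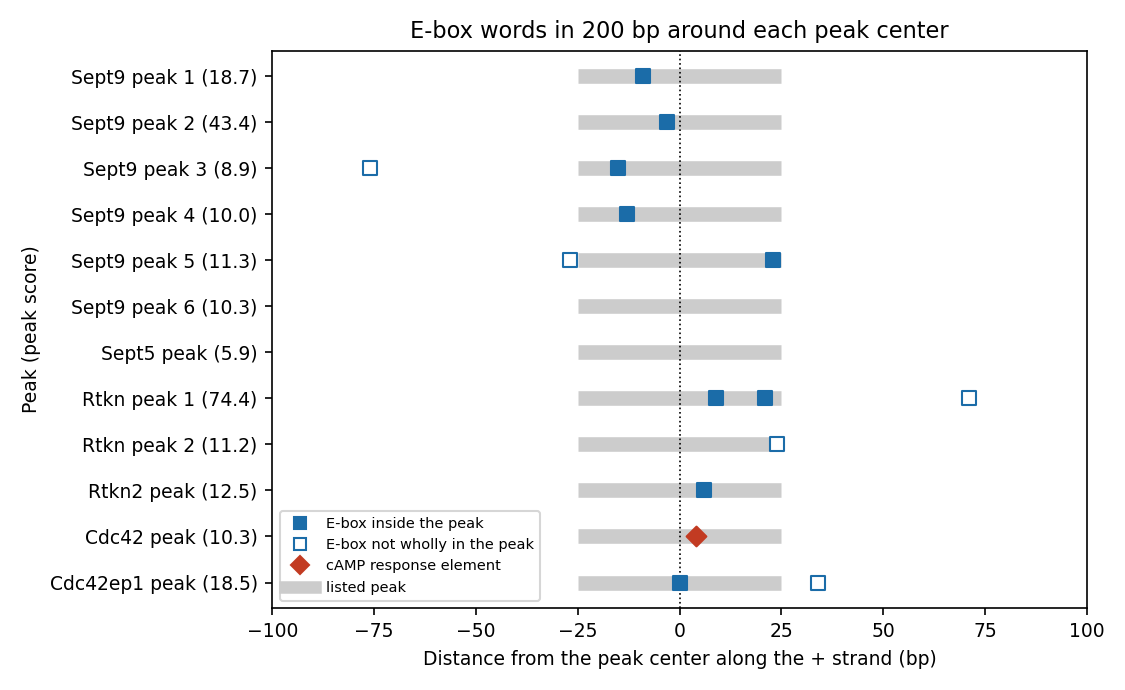
Place of each CAGCTG (squares) and of the cAMP response element (diamond) within 200 bp, by distance in bp from the peak center along the + strand (horizontal axis), for each of the 12 peaks with its score in parentheses (vertical axis). Filled squares lie in the listed 51 bp, marked by the gray bars, and open squares do not lie wholly in them. Rtkn peak 1 has 2 filled squares, and Sept9 peak 6, the Sept5 peak and the Cdc42 peak have no square.

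The other genes of the pathway were described by 5 lists, chosen with earlier results of the same data known. None of the 11 other septins had a peak, and these include Sept2, Sept4, Sept7 and Sept8, known as septins of myelin. Of the other effectors of Cdc42, 9 of 34 had a peak (26.5%), and of its regulators 9 of 36 (25.0%). Of the other small GTPases of the family of RhoA and Cdc42, 5 of 20 had a peak (25.0%), and of the other RhoA effectors and their partners 2 of 18 (11.1%). The share over all protein-coding genes was 14.1%, and no list was tested against it. Among protein-coding genes over 100 kb it was 21.6%, and the part of gene length in the shares of the lists was not tested.

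**Figure D4:**
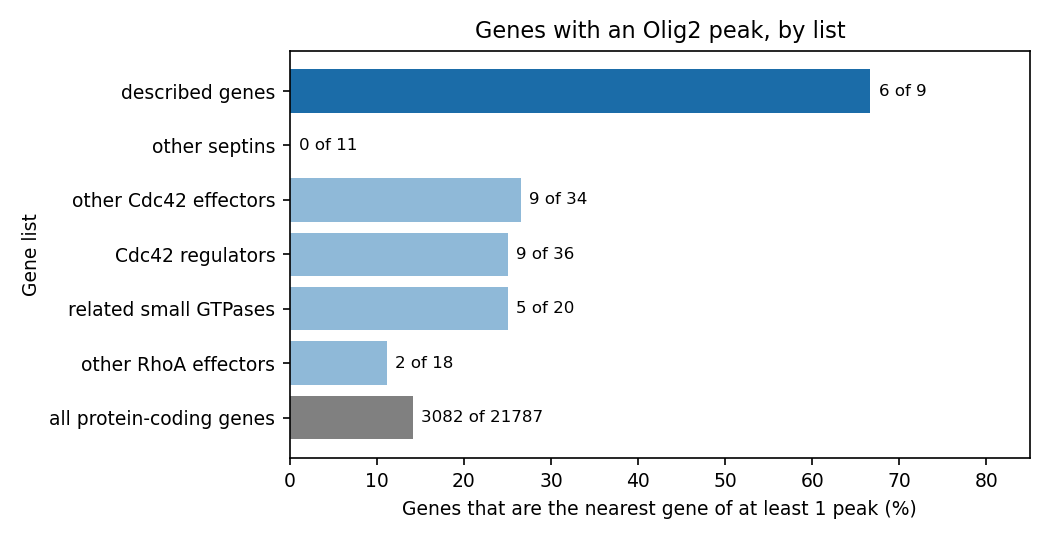
Share of the genes of each list that were nearest to 1 or more Olig2 peaks (horizontal axis, percent), with the counts beside each bar; the 9 genes described here are on top and all protein-coding genes at the bottom. The lists of Cdc42 effectors, Cdc42 regulators and related small GTPases stand at 25.0% to 26.5%, the other septins at 0, and all protein-coding genes at 14.1%.

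Among the other Cdc42 effectors, the formin Fmnl3, which elongates actin filaments, had the peak of highest score, 45.7 in an intron 26978 bp from the start and without the E-box motif. Cdc42se2, a small effector of Cdc42, had 2 peaks, the higher with a score of 18.7 and in an intron. The kinases Pak3 and Pak7 scored 12.9 and 11.6, and the formin Diaph3 scored 12.5 at the higher of its 2 peaks. The remaining peaks of this list were lower, with 8.22 for Fnbp1, an F-BAR protein that bends membranes, and 7.82 for Cdc42se1. Wasl, the N-WASP that turns on actin branching, scored 5.89 at its promoter, and Pard6b, of the Par polarity complex, scored 5.67.

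Several regulators of Cdc42 and related GTPases had peaks that scored above every septin peak other than Sept9 peak 2. The highest peaks of Dock10 and Chn2 scored above that peak too. Dock10, an exchange factor, had 2 peaks with a highest score of 53.9, in an intron and without the E-box motif. Chn2, a chimaerin that speeds GTP hydrolysis, chiefly by Rac, also had 2 peaks and reached 52.9 at its promoter. The exchange factor Fgd4 scored 37.3 at its promoter, with the E-box motif. Srgap3, a GTPase-activating protein of the Slit-Robo pathway, had 2 peaks and reached 18.9. The lower peaks of the list were those of Abr (14.3), Dock9 (11.6), Itsn2 (8.99) and Fgd3 (6.35).

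Among the small GTPases themselves, Rhoj and Rhoq, close relatives of Cdc42, scored 24.0 and 10.9 at their promoters, the value for Rhoq being the higher of its 2 peaks, and these promoter peaks had no E-box motif. Rhog scored 16.0 at the higher of 2 peaks, in its intron, and the intergenic peaks of Rhob and Rnd3 scored 12.1 and 10.5. Of the other RhoA effectors, the formin Daam1 had a peak of 12.5 in intron 1. Limk1, the kinase that phosphorylates the actin-severing protein cofilin, had 2 peaks with a highest score of 11.1.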

How the data were processed

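Olig2 ChIP and Input Control DNA were sequenced from the same tissue. By the study's methods and the submitters' notes, BWA was used for alignment (mm10), MACS2 for peaks, called once on 2 pooled experiments, and HOMER for annotation. The peak score was deposited by the authors on an unnamed scale, so it was compared by rank within the list. The authors also deposited the GC content of each 51 bp peak as a fraction, which matched GRCm38.p6 in 4215 of 4215 peaks. Nearest genes, distances and motif hits are as deposited, and distances to other starts used the RefSeq annotation of GRCm38.p6.

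The 9 genes and the 5 lists were chosen with earlier results of these data known, and some of their peaks (Cdc42se2 and Pak3 among them) had been seen. All 9 genes are named with every peak, and of each list every gene with a peak, by its highest score, apart from 1 gene that is not reported here. The neighbours of peaks were named after their values were seen. The list has no replicates, so no test was made and no count model used. Alternatives changed the score required, the assignment of peaks and the E-box definition. A second table of 5 peaks and the Input Control were not used. Code was run with python 3.11.15, pandas 2.3.3, numpy 2.4.6 and pysam 0.24.0. Its word search, assignment of peaks to gene spans and merging of near peaks were tested on made-up data, and its other steps were not. The windows of the word search held only A and T apart from the planted word.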

Additional observations from a re-analysis of the deposited data

How the results depend on the processing

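Of 39 alternative values, 25 were classed as the same as the reported value and 14 as moved. The values classed as the same stayed within 1.5 times the reported value, as did the moved share of 19.0%. With a score of at least 20, 2 of the 9 genes kept a peak (Sept9 and Rtkn), with 1 peak of Sept9, 2 peaks in all and 2 with the E-box motif, and the share of protein-coding genes with a peak was 3.86%. With a score of at least 10 that share was 8.94%. Counting only peaks within 1 kb of the TSS left 3 genes (Sept9, Rtkn and Cdc42), 1 peak of Sept9 and 3 peaks, with a share of 7.36%, and peaks over 1 kb gave a share of 7.63%. Counting only peaks inside a gene left 3 genes and a share of 9.11%, and counting those within 10 kb of a gene as well gave 19.0%. There Sept5 counted through the peak listed under Gp1bb. No paired analysis was possible because both experiments were pooled before peaks were called. The depth behind each peak is unknown, tied scores (710 distinct values over 4215 peaks) limit the ranks, and a gene without a peak has no measured level.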

Other observations

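The deposited peak numbers run to 7859, although 4215 peaks were listed, and each listed peak had at least 1 motif hit. The numbers rise along each chromosome. From peak 1 to peak 6 of Sept9 there are 7 numbers, of which 6 are listed, and the number between peaks 5 and 6 was not analysed here. What the remaining numbers stand for is not stated in the sources used here.

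Besides Sept9 and Sept5, 2 peaks of the list had a nearest gene whose name had become a date. One belonged to Marchf2, a membrane-bound ubiquitin ligase. The other belonged to Selenof, a selenoprotein once named Sep15, which is not a septin and was not counted as one.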
